A study of Danio rerio with 14 samples.

Results

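Eyes of zebrafish larvae taken at 5 days post fertilization (dpf), directly at the end of an exposure to tetrabromobisphenol A (TBBPA), were compared with eyes of control larvae of the same age. The comparison rests on 6 of the 12 RNA samples of the TBBPA experiment and mainly on 6 of its 14 arrays, those on which a TBBPA and a control sample of 5 dpf met directly. The remaining arrays (4 within 8 dpf and 4 that linked the ages) entered the same model. They shared in its estimate of the error and, through the links between ages, also in the fitted change. A fitted change can therefore differ from the mean of the direct arrays. All larvae were of the wild-type AB strain with no genetic change. They were raised in plates of 24 eggs under 14 h of light and 10 h of dark, and the eyes of 10 larvae of a plate were pooled for 1 RNA sample, so that a plate is the replicate and single larvae cannot be resolved. The TBBPA plates received 200 µg/L of this brominated flame retardant from shortly after fertilization until 5 dpf, and the control plates received medium with the solvent dimethyl sulfoxide, which according to the methods was in both groups. There were 3 plates per group, and the methods place all sampling in the morning, in a window of at most 3 h. The time at which each plate was collected is not given, so its part in the results was not tested. The question of the comparison was which transcripts of the developing eye differ at the end of exposure to a suspected disruptor of thyroid hormone.

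Vision in bright light depends on cone photoreceptors, in which an opsin that has absorbed light activates transducin and then a phosphodiesterase, while guanylate cyclases and their calcium-bound activators restore the signal. Bipolar cells carry the signal onward. Thyroid hormone acts on the differentiation of cones and on the choice of cone opsin. The retina, like most zebrafish tissues, also holds its own circadian clock, a loop of activators (Bmal, Clock) and repressors (Per, Cry, Nr1d) that can be set directly by light and that drives output factors such as Tef, Dbp and Nfil3.

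After the study's filter on weak spots the deposited data held 17950 probes of the array, which gave 8948 named genes when the probes of a gene were averaged. A value is a log2 ratio between 2 RNA samples on an array, so the level of a gene relative to other genes cannot be read. Probes of 7 cone opsins, 17 rod genes and 42 crystallins passed the background filter of the study, as the labelled tissue requires, but how strongly they were expressed is not contained in the ratios. For each gene the level of every plate was therefore calculated over all arrays and is given on a log2 scale against the mean of the 3 control plates of 5 dpf. A fitted change is TBBPA minus control in log2 units, with its standard error (SE) from limma and an adjusted p over all genes, and "rose" and "fell" are used only for an adjusted p under 0.05. The SE and the p-value take arrays as replicates. With plates as replicates only cyp2y3 and kera passed among the genes, and a permutation of 3 against 3 plates cannot give a two-sided exact p below 0.10. Since whole eyes were measured in bulk, fewer cells of a type and less RNA per cell cannot be told apart.

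Of all probes, 127 (0.708%) were called, with an adjusted p under 0.05 and a log2 change over 0.75 in size, 64 higher (0.357%) and 63 lower (0.351%) after TBBPA. They stood for 81 named genes, and 21 of the called probes carried no name. Among all genes 525 (5.87%) rose and 308 (3.44%) fell with no threshold on the size. The counts of gene groups below are to be read beside these shares. The typical change was small, with a median size of 0.08 over all probes, and the called changes ran from -2.07 to 2.15. Of the called probes, 107 had the same sign on all 6 direct arrays and the other 20 on 5 of them. Among all 17950 probes, 2099 and 4308 did so. The calls were made from these same arrays, so the agreement in sign follows in part from the choice of probes.

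The plates did not contribute alike to these calls. The 3 TBBPA plates lay entirely above the 3 controls for 57 of the 64 higher probes and entirely below them for 55 of the 63 lower ones, while 17.7% of all probes had groups that did not overlap. The probes were called for a group difference on the same arrays, so this separation also follows in part from the choice of probes. Control plate 3 was the control nearest to the TBBPA plates for 47 of the higher and 52 of the lower probes. Control plate 1 was the farthest for 55 of the lower probes, and control plate 2 was the farthest for 42 of the higher ones. TBBPA plate 3 was farthest from the controls for 42 of the lower probes. The controls also differed more among themselves than the TBBPA plates did, with a median SD between plates of 0.64 against 0.23 for the lower probes and of 0.36 against 0.25 for the higher probes, where all probes had 0.10 and 0.09. Without control plate 1, which was on 4 of the 14 arrays, 17 of the 127 probes were still called and all 127 kept their direction, and the counts of the gene groups below are also given without that plate. They are not given without control plate 2. Without control plate 2, 100 probes were called and 297 genes rose or fell, compared with 833 genes when all samples were used.

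The lowest called gene was nr1d1, a nuclear receptor that represses bmal transcription. Its level was 0.94, 0.12 and -1.06 in control plates 1 to 3, and -1.76, -2.33 and -1.77 in TBBPA plates 1 to 3. The TBBPA plates lay close together below the lowest control, while the controls spread over a wide range. The fitted change was -2.07 ± 0.29 (SE over arrays, adjusted p = 0.000789, or 0.133 with the 3 plates per group as replicates), a 4.20-fold lower level. The related nr1d2b was at 0.05, 0.04 and -0.09 in the controls and at -0.57, -1.22 and -1.07 in the TBBPA plates. Here the controls were tight and all 3 TBBPA plates were clearly lower, with a change of -0.92 ± 0.10 (adjusted p = 0.000216). These values are means of 3 probes whose changes ran from -1.57 to -0.56, and 1 of them was called. The called probe had wider controls, at 0.06, 0.19 and -0.25. Another member of the family, nr1d2a, had groups that did not overlap and a change of -0.34 ± 0.11 that did not pass (adjusted p = 0.0593). In the opposite direction rorcb, a receptor that competes with the Nr1d proteins for the same DNA elements and activates, rose by 0.81 ± 0.16 (adjusted p = 0.00498). Its TBBPA plates 2 and 3 stood at 1.06 each, but TBBPA plate 1 at 0.23 was next to control plate 3 at 0.20. Of the 8 nr1d and ror receptors measured, 1 rose and 2 fell.

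The per and cry genes and their partners encode the repressors of the loop. Of these 14 genes, 10 had a fitted change below 0, compared with 4194 of 8948 genes. The TBBPA plates lay below all controls for 6 of the 14 and above all controls for 2. Among all genes these shares were 8.9% and 9.79%. The level of per1b was 0.56, 0.06 and -0.63 in the control plates and -1.43, -2.44 and -1.89 in the TBBPA plates. The groups did not overlap, with the lowest control 0.63 below the control mean and the highest TBBPA plate 1.43 below it. Both groups spread widely, with an SD between plates of 0.60 in the controls and 0.50 in TBBPA. With plates as replicates in limma the adjusted p was 0.0825. The change of -1.94 ± 0.19 was 3.83-fold (adjusted p = 8.6e-05). Its paralogs moved less, as per3 fell by 0.42 ± 0.11 (adjusted p = 0.0204), per2, which light induces, changed by -0.16 ± 0.07 (adjusted p = 0.156), and per1a by -0.09 ± 0.11 (adjusted p = 0.692). The cryptochrome cry2 fell by 0.55 ± 0.09 (adjusted p = 0.00239) and the repressor bhlhe41, also known as Dec2, by 0.64 ± 0.11 (adjusted p = 0.00221). In contrast cry2b rose by 0.83 ± 0.15 (adjusted p = 0.00328), but its plates overlapped, since control plate 3 at 0.44 was above TBBPA plate 1 at 0.35. Of the 14 genes of this group, 2 rose (cry2b and cry4) and 6 fell. Among the activators bmal1a rose by 0.56 ± 0.10 (adjusted p = 0.00355), from plate levels of -0.28, 0.07 and 0.21 to 0.34, 0.50 and 0.67 with no overlap.

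The output factors changed in opposite directions. The highest called gene, nfil3-5, encodes a repressor that binds the same DNA elements as Tef and Dbp. It was at -0.71, 0.00 and 0.71 in the controls and at 1.22, 2.29 and 2.72 in the TBBPA plates. The groups were apart, although control plate 3 was nearer to TBBPA plate 1 than to control plate 1. The change was 2.15 ± 0.36, or 4.44-fold (adjusted p = 0.00221), and nfil3 rose with it by 0.76 ± 0.11 (adjusted p = 0.000911). The activators tefa and dbpa fell. Levels of tefa were 0.39, -0.01 and -0.38 in the controls and -0.94, -1.15 and -1.21 in the TBBPA plates, so that the latter agreed within a narrow range below all controls. The change of tefa was -1.12 ± 0.11 (adjusted p = 7.89e-05) and that of dbpa -0.89 ± 0.12 (adjusted p = 0.000789). In this group of 7 genes, 2 rose and 4 fell (dbpa, nfil3-6, tefa and tefb). The fall of nfil3-6 ran against the rise of nfil3-5 and nfil3, so the nfil3 genes had no common direction. Its 5 probes changed by -0.89 to -0.46, and 2 of them were called.

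Photolyases and light-induced repair genes, whose proteins remove ultraviolet damage from DNA, moved in a single direction. All 6 measured members had groups that did not overlap, with TBBPA lower, where 8.9% of all genes did, and 4 of the 6 fell. The strongest was cry-dash, a photolyase-like cryptochrome, at 0.47, -0.10 and -0.37 in the controls and at -1.13, -1.26 and -1.58 in the TBBPA plates. The distance between the groups was wider than the spread within the TBBPA group but not wider than that within the controls. The change was -1.36 ± 0.13 (adjusted p = 7.89e-05). The photolyase cry5 fell by 0.70 ± 0.08 (adjusted p = 0.000281), the damage sensor ddb2 by 0.73 ± 0.11 (adjusted p = 0.000972) and cpdp by 0.33 ± 0.06 (adjusted p = 0.00239). hsf2, a heat shock transcription factor, showed the same arrangement of plates as these genes. It was at 0.39, -0.11 and -0.28 in the controls and between -1.23 and -0.83 in the TBBPA plates, which lay below all controls, and fell by 1.09 ± 0.12 (adjusted p = 0.000222).

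In nearly all of these clock genes the controls were ordered, with plate 1 farthest from the TBBPA level and plate 3 nearest to it, so that the differences between controls ran along the same axis as the treatment difference. Without control plate 1 the change of nr1d1 was -1.44 (adjusted p = 0.0813) and that of nfil3-5 1.51 (adjusted p = 0.146), and neither passed. The calls of nfil3 (adjusted p = 0.109), rorcb (0.259), cry2b (0.117), cry2 (0.16), bhlhe41 (0.149), per3 (0.381), bmal1a (0.214), ddb2 (0.0813) and cpdp (0.18) were lost as well. In contrast per1b (-1.52, adjusted p = 0.00969), cry-dash (-1.04, adjusted p = 0.0076), tefa (-0.86, adjusted p = 0.0183), nr1d2b (-0.83, adjusted p = 0.0357) dbpa (-0.54, adjusted p = 0.0438), cry5 (-0.54, adjusted p = 0.0357) and hsf2 (-0.78, adjusted p = 0.0183) still passed. Without that plate 1 of the 14 repressors, 1 of the 8 nr1d and ror receptors, 2 of the 7 output factors and 2 of the 6 photolyase and repair genes fell, and none of these groups had a gene that rose.

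**Figure D1:**
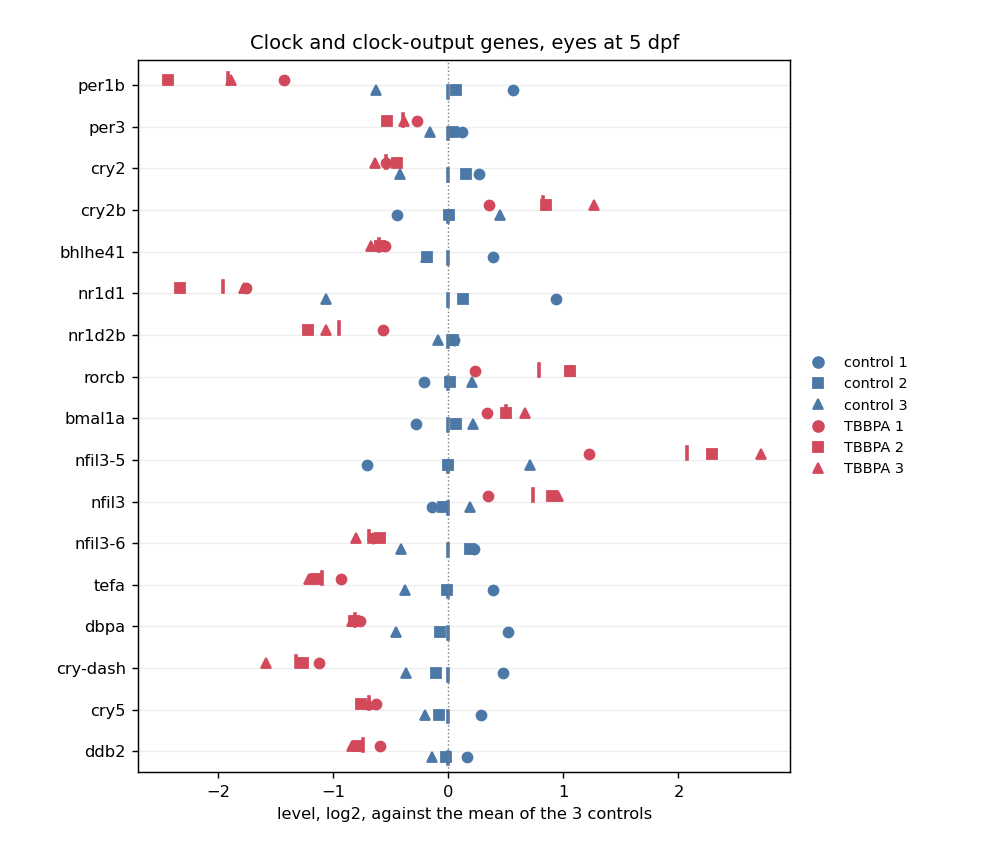
Level of 17 clock and clock-output genes in each plate at 5 dpf. The horizontal axis is the log2 level against the mean of the 3 controls. Blue symbols are control plates, red symbols TBBPA plates, the symbol shape gives the plate number and short vertical lines are group means. For per1b, nr1d1 and cry-dash all red symbols lie left of all blue ones, and in most rows control plates 1 and 3 lie at opposite ends of the controls.

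Cone opsins, the light-sensing proteins of cones, were higher for the red opsins and for part of the green ones. Of the 7 measured, 4 rose and 1 fell. TBBPA plates lay above all controls for 4 of the 7, those that rose, where 9.79% of all genes had this. Green-sensitive opn1mw1 was at -0.04, -0.18 and 0.22 in the controls and at 0.66, 0.90 and 1.37 in the TBBPA plates, all above the controls. It rose by 0.98 ± 0.16 (1.98-fold, adjusted p = 0.00163). Red-sensitive opn1lw2 was at -0.23, -0.05 and 0.27 in the controls and at 0.78, 0.85 and 1.08 in the TBBPA plates. Its groups were also apart, with TBBPA plates closer to each other than the controls were, and it rose by 1.02 ± 0.15 (2.02-fold, adjusted p = 0.0012).

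Within these opsins opn1mw2 (0.80 ± 0.09, adjusted p = 0.000216) and opn1lw1 (0.64 ± 0.09, adjusted p = 0.000794) rose as well, and TBBPA plate 3 was the highest plate for all 4. The green opsin opn1mw3 fell by 0.16 ± 0.04 (adjusted p = 0.0182), a small change with tight plates that did not overlap (-0.02, -0.05 and 0.06 against -0.17, -0.20 and -0.12). Blue opn1sw2 and ultraviolet opn1sw1 did not pass, with changes of 0.24 ± 0.08 (adjusted p = 0.0912) and 0.09 ± 0.08 (adjusted p = 0.539) and overlapping plates. Probes of opsin genes that are near-identical copies, such as those of the green and red families, may detect more than 1 of them. Without control plate 1 opn1mw2 and opn1lw1 passed and opn1mw1 and opn1lw2 did not (adjusted p = 0.134 and 0.0988), though the changes remained at 0.88 and 0.76. The median of the 7 opsins was 0.64, or 0.68 without control plate 1, where the median of all genes was 0.01.

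Downstream of the opsins the cone cascade was partly lower. The catalytic subunit of the cone phosphodiesterase, pde6c, was at 0.23, 0.06 and -0.29 in the controls and at -0.65, -0.97 and -0.87 in the TBBPA plates. No TBBPA plate reached the lowest control, and pde6c fell by 0.83 ± 0.11 (1.78-fold, adjusted p = 0.000567). Its inhibitory subunits pde6h and pde6ha fell by 0.79 ± 0.15 (adjusted p = 0.00545) and 0.67 ± 0.16 (adjusted p = 0.0147). In both, control plate 3 at -0.52 was nearly as low as TBBPA plate 1 (-0.65 and -0.54), and the direct array of those plates carried the opposite sign. The opsin kinase grk7a fell by 0.60 ± 0.10 (adjusted p = 0.00261), transducin gnat2 by 0.28 and recoverin rcvrn2 by 0.33. In contrast the transducin subunits gnb3b and gngt2a rose by 0.44 and 0.53, both with overlapping plates. Of the 15 genes of the cascade, 2 rose and 6 fell, with a median of -0.09. None of the 15 passed without control plate 1, with an adjusted p of 0.0813 for pde6c, 0.191 for pde6h, 0.289 for pde6ha and 0.114 for grk7a.

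Guanylate cyclases and their activators were lower in 5 of 6 genes, of which 4 fell. The activator guca1g was at 0.02, 0.11 and -0.13 in the controls and at -0.49, -0.87 and -1.09 in the TBBPA plates. The groups were apart and TBBPA plate 1 was nearest to the controls, with a change of -0.78 ± 0.10 (adjusted p = 0.000467). The others were guca1c (-0.37 ± 0.09, adjusted p = 0.0156), guca1d (-0.39 ± 0.08, adjusted p = 0.00496) and the cyclase gucy2d (-0.33 ± 0.08, adjusted p = 0.0175). The plates of guca1d and gucy2d overlapped. For guca1d control plate 3 at -0.23 was below TBBPA plate 1 at -0.19, and for gucy2d control plate 3 at -0.30 lay among the TBBPA plates. Rod genes showed no such arrangement, with 1 of 17 that rose (rom1a, 0.29 ± 0.07, adjusted p = 0.0206, with probes of opposite sign), 1 that fell (saga, -0.19 ± 0.05, adjusted p = 0.0308) and a median of 0.04. In the retinoid cycle, which regenerates the chromophore, 3 of 26 genes fell (11.5%, where 3.44% of all genes fell). Among them were rpe65a (-0.39 ± 0.10, adjusted p = 0.0183) and rbp3 (-0.47 ± 0.12, adjusted p = 0.0224). When control plate 1 was left out, 1 of the 6 cyclase and activator genes fell (guca1g, adjusted p = 0.0468), 1 of the 26 retinoid genes fell (rbp4l) and none of the rod genes passed.

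Bipolar cell genes were lower as well, with 7 of 17 that fell (41.2%, where 3.44% of all genes fell) and none that rose. The calcium-binding protein cabp5b had the tightest controls of the genes named for vision, at 0.03, -0.02 and -0.01, against -0.65, -0.65 and -1.06 in the TBBPA plates. The gap between the groups was many times the spread of the controls, and cabp5b fell by 0.74 ± 0.09 (1.67-fold, adjusted p = 0.000441) and by 0.74 (adjusted p = 0.0236) without control plate 1. The glutamate receptor of ON bipolar cells, grm6b, and its channel trpm1a fell by 0.29 ± 0.08 (adjusted p = 0.03) and 0.36 ± 0.07 (adjusted p = 0.00801) with no overlap. Genes of the synapse and of vesicle release had 5 of 34 members that fell and none that rose, among them the ribbon synapse complexin cplx4a (-0.40 ± 0.09, adjusted p = 0.0151). Of the 34, 32 were below 0, compared with 4194 of 8948 genes, but the groups were apart for only 1 of them, and the mean level of control plate 3 (-0.09) was next to that of TBBPA plate 3 (-0.10). Without control plate 1 none of the synapse genes and 1 of the bipolar genes passed. Amacrine and horizontal cell genes (0 rose and 1 fell of 23), ganglion cell genes (1 and 0 of 16) and Müller glia genes (1 and 1 of 19) had few members that passed. Small changes below 0 were not limited to the synapse genes. They were found in 21 of the 23 amacrine and horizontal cell genes, 32 of 40 neurotransmitter receptors and 18 of 21 voltage-gated ion channels. For ganglion cells it was 10 of 16 genes and for Müller glia 7 of 19.

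**Figure D2:**
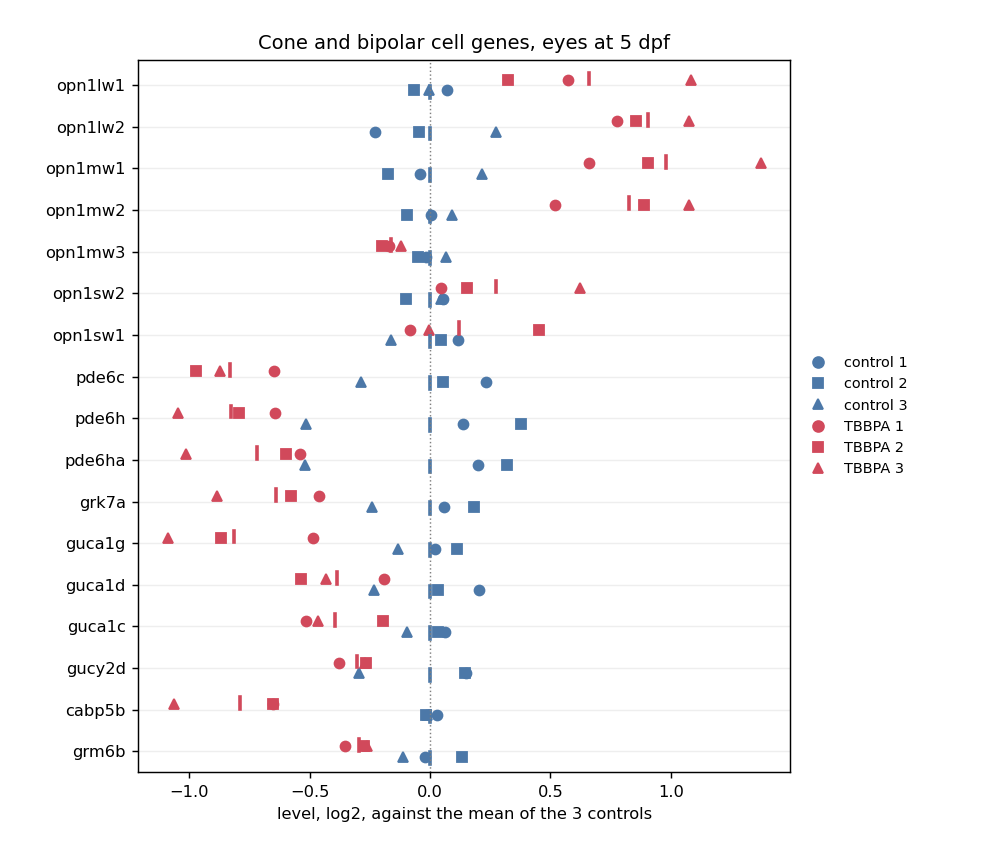
Level of 17 cone and bipolar cell genes in each plate at 5 dpf, on the log2 scale against the mean of the 3 controls, with symbols and lines as for the clock genes. The 4 opsins that rose lie to the right of the controls, with TBBPA plate 3 highest, while pde6c, guca1g and cabp5b lie to the left, and control plate 3 lies next to TBBPA plates for pde6h, pde6ha and gucy2d.

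Lens genes that passed were all higher. Of 42 crystallins, the bulk proteins of the lens, 10 rose and none fell, and 39 were above 0 with a median of 0.18. The mean levels of the crystallin list overlapped, with control plate 3 at 0.19 above TBBPA plate 1 at 0.06. The γ-crystallin crygmx was at 0.02, -0.45 and 0.43 in the controls and at 0.72, 1.40 and 1.06 in the TBBPA plates. TBBPA plate 2 was the highest and control plate 2 the lowest, and the groups did not overlap. It rose by 1.05 ± 0.21 (2.07-fold, adjusted p = 0.00595). The β-crystallin cryba4 had tighter controls, at 0.06, -0.09 and 0.03 against 0.46, 0.84 and 0.68. It rose by 0.64 ± 0.09 (adjusted p = 0.000607), with all TBBPA plates well above the controls. These values are means of 2 probes with changes of 0.40 and 0.88. The probe at 0.88 was called and had wider controls, at -0.02, -0.23 and 0.25. Of 17 genes of lens fibre membranes, filaments and their transcription factors, 5 rose, among them lim2.3 (0.75 ± 0.15, adjusted p = 0.00571) and the beaded filament gene bfsp2 (0.39 ± 0.08, adjusted p = 0.008). Crystallins are families of similar sequence, so a probe may read more than 1 gene, and without control plate 1 none of the crystallins or lens fibre genes passed, at medians of 0.09 and 0.24. Without control plate 2 the median of the lens fibre genes was 0.17, the lowest when a plate of 5 dpf was left out.

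Genes of surface epithelium, cornea and cartilage rose in part of the first list and in most of the second. Of 52 keratins, claudins and related epithelial genes, 24 rose and 2 fell (cldn10b and cldn2), with a median of 0.31, and of 23 genes of cornea and cartilage matrix 15 rose, none fell and all 23 were above 0. The mean levels of the epithelial list overlapped, with control plate 3 at 0.20 and TBBPA plate 3 at 0.19. The most even change was that of kera, which encodes keratocan, a proteoglycan of the corneal stroma. Its level was 0.08, 0.00 and -0.08 in the controls and 0.74, 0.72 and 0.81 in the TBBPA plates. Each group spanned a small fraction of the distance between them, and kera rose by 0.77 ± 0.10 (1.70-fold, adjusted p = 0.000636), also with plates as replicates (adjusted p = 0.0344), but not without control plate 1 (0.79, adjusted p = 0.0553). The keratin krt17 was at -0.15, 0.05 and 0.10 in the controls and at 0.57, 0.68 and 0.46 in the TBBPA plates, with no overlap. It rose by 0.63 ± 0.08 (adjusted p = 0.000398), and by 0.50 (adjusted p = 0.0357) without control plate 1.

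Other genes of these lists had wider controls. The tight junction gene cldni was at 0.01, -0.41 and 0.40 in the controls and at 0.54, 0.77 and 0.84 in the TBBPA plates, so that control plate 3 was nearer to TBBPA than to control plate 2. It rose by 0.69 ± 0.14 (adjusted p = 0.00638). The collagen of hypertrophic cartilage, col10a1a, had the same form, with controls at -0.18, -0.30 and 0.48 and TBBPA plates at 0.62, 0.70 and 0.80, and rose by 0.72 ± 0.10 (adjusted p = 0.000783). Matrilin matn1, at 0.12, -0.07 and -0.05 against 0.44, 0.61 and 0.63, was tight in both groups. It rose by 0.49 ± 0.08 (adjusted p = 0.00159) and by 0.59 (adjusted p = 0.0236) without control plate 1. Of 12 other collagens, 5 rose, including the type I chains col1a1a (0.47 ± 0.09, adjusted p = 0.0055) and col1a1b (0.48 ± 0.09, adjusted p = 0.00493). Without control plate 1, 2 of the epithelial genes and 2 of the cornea and cartilage genes passed, at medians of 0.26 and 0.29, and none of the other collagens. Without control plate 2 the median of the cornea and cartilage genes was 0.19, the lowest when a plate of 5 dpf was left out.

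Skeletal muscle genes, which mark tissue attached to the eye, followed in part. Of 58, 17 rose and 1 fell, with a median of 0.21 that was 0.08 without control plate 1, where 1 of them passed. The myosin light chain myl13 was at -0.37, -0.33 and 0.69 in the controls and at 0.96, 0.68 and 1.09 in the TBBPA plates. Control plate 3 was as high as TBBPA plate 2, and the change was 0.93 ± 0.16 (adjusted p = 0.00261). The mean of the whole list was -0.19, -0.02 and 0.21 in the controls and 0.28, 0.14 and 0.15 in the TBBPA plates, so the groups overlapped. The part of attached muscle, skin and cartilage in the other results was not tested.

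Of 8 globin and red cell genes 3 rose (37.5%, where 5.87% of all genes rose) and none fell, with a median of 0.10. The 3 that rose were globins, the oxygen carriers of red cells. Embryonic hbae1.1 was at 0.30, -0.27 and -0.03 in the controls and at 1.18, 0.81 and 0.89 in the TBBPA plates, clearly apart. It rose by 0.87 ± 0.15 (1.83-fold, adjusted p = 0.00264), and its change was larger without control plate 1, at 1.17 (adjusted p = 0.0236). The β-globin hbbe2 rose by 0.65 ± 0.10 (adjusted p = 0.00114) and hbae1 by 0.34 ± 0.05 (adjusted p = 0.000726), and since globin genes share much of their sequence the members may not be separate.

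**Figure D3:**
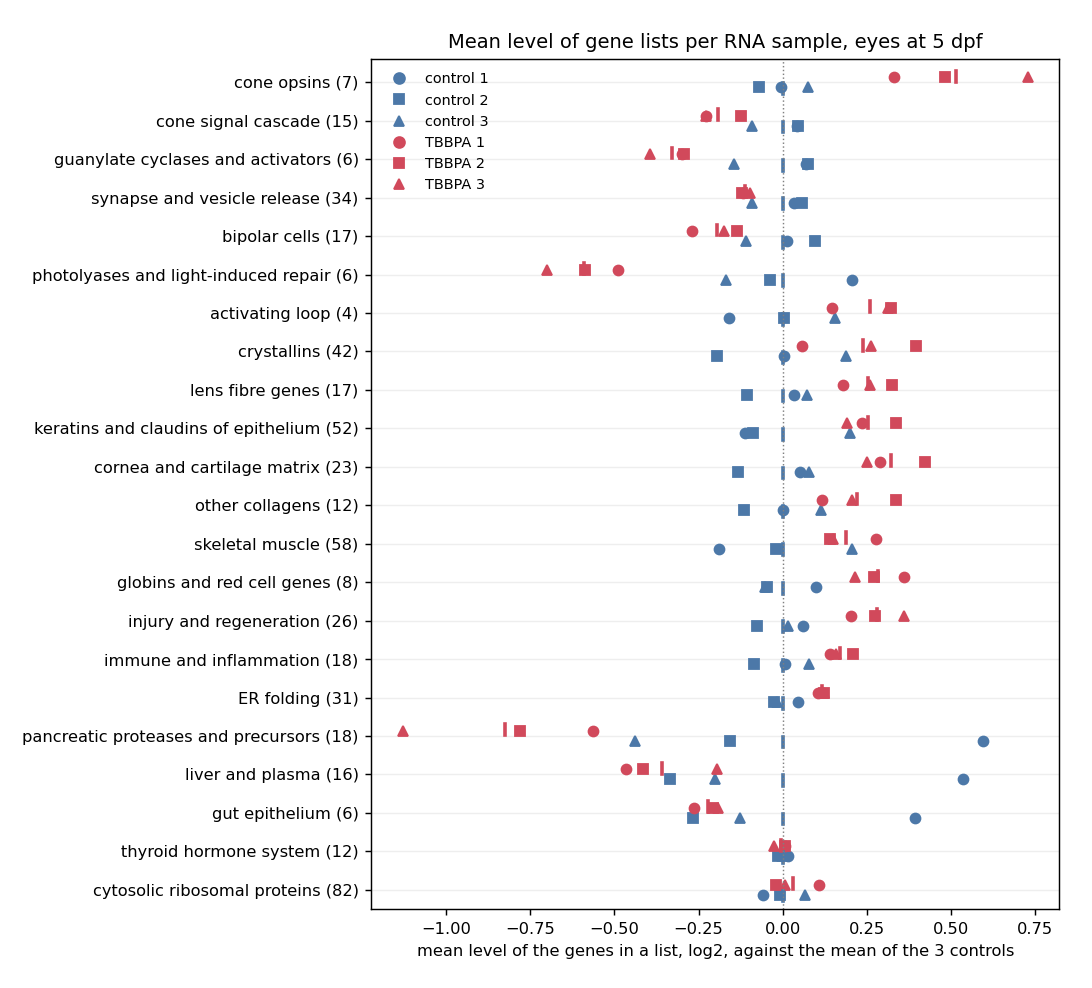
Mean level of the measured genes of 22 lists in each plate at 5 dpf. The horizontal axis is the mean log2 level against the 3 controls, the number of genes is in brackets, symbols are plates and short vertical lines are group means. The cone opsins, the photolyases and the cornea and cartilage genes have groups that lie apart, while skeletal muscle, liver and gut genes overlap and control plate 1 lies far to the right for pancreas, liver and gut.

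Genes of injury and regeneration rose in 10 of 26 cases (38.5%, where 5.87% of all genes rose), and none fell. The gelatinase mmp9, which cuts extracellular matrix, was at 0.11, -0.02 and -0.10 in the controls and at 0.39, 1.14 and 2.88 in the TBBPA plates. All TBBPA plates were above the controls, but they differed widely from each other, and plate 3 was far above the rest. The change of mmp9 was 1.28 ± 0.28 (2.43-fold, adjusted p = 0.0102), and 1.26 (adjusted p = 0.12) without control plate 1. The transcription factor cebpb had the same order, with 0.26, -0.22 and -0.04 in the controls and 0.59, 1.24 and 2.12 in the TBBPA plates. It rose by 1.15 ± 0.18 (adjusted p = 0.00129) and by 1.26 (adjusted p = 0.0236) without control plate 1.

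The stress factor atf3, an immediate early gene, repeated this order of TBBPA plates at 0.03, 0.89 and 1.82, with TBBPA plate 1 below control plate 1 at 0.23, and rose by 0.80 ± 0.19 (adjusted p = 0.0163). Among other genes of this kind, jun rose by 0.36 ± 0.08 (adjusted p = 0.0115) with TBBPA plate 3 highest at 0.73. However, myca fell by 0.27 ± 0.08 (adjusted p = 0.0459). Plates of fosab (-0.03 ± 0.17, adjusted p = 0.941) and the cytokine signal inhibitor socs3a (0.26 ± 0.14, adjusted p = 0.268) overlapped, and neither passed. The 33 immediate early genes had no common direction, as 3 rose and 2 fell, 17 were above 0 and 16 below, and the median was 0.00. The vault protein mvp rose by 0.83 ± 0.12 (adjusted p = 0.000846), and the matrix protease mmp2 by 0.68 ± 0.13 (adjusted p = 0.00545). With control plate 1 left out, 2 of the 26 injury genes rose (cebpb and sox11b), and atf3 (adjusted p = 0.176), jun (0.247), mvp (0.0882) and mmp2 (0.163) did not pass. Of 18 immune genes 5 rose (27.8%) and none fell, with leukocyte markers such as lcp1 (0.31 ± 0.08, adjusted p = 0.0179) and coro1a (0.25 ± 0.06, adjusted p = 0.0257). On the direct array of TBBPA plate 1 and control plate 3 both were slightly lower in TBBPA, and neither passed without control plate 1 (adjusted p = 0.268 and 0.304).

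Genes of protein folding and defence are given beside the 5.87% of all genes that rose and the 3.44% that fell. Of 73 heat shock and chaperone genes 4 rose (5.48%) and 2 fell (2.74%), including hspb1 (0.50 ± 0.11, adjusted p = 0.00801). Of 31 genes of folding in the endoplasmic reticulum 4 rose (12.9%) and none fell, including pdia4 (0.32 ± 0.06, adjusted p = 0.00503). All TBBPA plates lay above the controls for 13 of these 31, where 9.79% of all genes had this. The sensor chaperone hspa5 did not pass (0.13 ± 0.07, adjusted p = 0.265). Of 31 genes that oxidize or conjugate foreign compounds, 4 rose (12.9%) and 2 fell (6.45%). The cytochrome P450 cyp2y3 had a very even separation. Its controls were at 0.05, -0.04 and -0.01 and its TBBPA plates at 0.56, 0.57 and 0.55, with hardly any spread within the groups. It rose by 0.56 ± 0.04 (1.48-fold, adjusted p = 1.31e-05), it passed with plates as replicates (adjusted p = 0.047), and it did so without control plate 1 (0.59, adjusted p = 0.0076). In contrast cyp1a, the target gene of the aryl hydrocarbon receptor, fell by 0.42 ± 0.10 (adjusted p = 0.0133), with controls at 0.00, -0.14 and 0.14 and TBBPA plates at -0.34, -0.41 and -0.54. Only cyp2y3 of its list and hsf2 of the heat shock genes passed without control plate 1, and none of the folding genes did.

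Of the 12 measured genes of the thyroid hormone system, 1 fell and none rose. The receptor thraa was at 0.15, 0.12 and -0.26 in the controls and at -0.25, -0.44 and -0.37 in the TBBPA plates. Control plate 3 lay beside TBBPA plate 1, and thraa fell by 0.36 ± 0.07 (adjusted p = 0.00642), or by 0.25 (adjusted p = 0.23) without control plate 1. The receptor thrb (-0.02 ± 0.09, adjusted p = 0.911) and the deiodinase dio2, which makes the active hormone (-0.01 ± 0.05, adjusted p = 0.936), had overlapping plates. Among 94 genes of the respiratory chain and ATP synthase, 3 rose (3.19%) and 2 fell (2.13%), below the 5.87% and 3.44% of all genes. cox6a2, the muscle form of a cytochrome c oxidase subunit, was at -0.16, -0.02 and 0.18 in the controls and at 0.80, 0.48 and 0.62 in the TBBPA plates, without overlap, and rose by 0.66 ± 0.05 (1.58-fold, adjusted p = 1.31e-05). Of 20 pigment cell genes 4 fell (20%, where 3.44% of all genes fell). The lowest was pnp4a, an enzyme of the purine path used by reflecting pigment cells, at -0.60 ± 0.08 (adjusted p = 0.000503). Another of them was trpm1a, which is also counted among the bipolar cell genes above, so the groups share members. Among 82 cytosolic ribosomal protein genes 1 rose and none fell. None of the thyroid, pigment and ribosomal genes passed without control plate 1, and 1 respiratory chain gene did (cox6a2, 0.59, adjusted p = 0.00969).

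Genes of the exocrine pancreas and the liver were among those that fell most after TBBPA. Of 18 pancreatic proteases and their precursors 16 fell and 1 rose, with a median of -1.06 that was -0.61 without control plate 1, where 2 passed. The amylase amy2a was at 0.82, -0.22 and -0.60 in the controls and at -1.07, -1.82 and -2.41 in the TBBPA plates. The groups did not overlap, and both spread over more than 1 log2 unit. The change was -1.85 ± 0.30 (3.60-fold, adjusted p = 0.00215) and -1.18 (adjusted p = 0.139) without control plate 1. The elastase ela2l and the trypsin prss1 had the same order of plates, 1 highest and 3 lowest in each group, and fell by 1.58 ± 0.25 (adjusted p = 0.0015) and 1.63 ± 0.28 (adjusted p = 0.00261). Trypsin, chymotrypsin and elastase genes are similar in sequence, so their probes may not be independent.

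Of 16 liver and plasma genes 7 fell and 1 rose, and none passed without control plate 1. The apolipoprotein apoa2 was at 1.51, -0.81 and -0.70 in the controls and at -1.12, -1.08 and -0.45 in the TBBPA plates. Control plate 1 alone was high, the other 5 plates overlapped, and the change of -1.15 ± 0.30 (adjusted p = 0.0279) was -0.19 (adjusted p = 0.246) without it. The liver fatty acid-binding protein fabp10a was at 1.30, -0.47 and -0.83 in the controls and at -1.77, -1.57 and -1.68 in the TBBPA plates. Its TBBPA plates were alike and below every control, with a change of -1.74 ± 0.27 (adjusted p = 0.0015), or -1.04 (adjusted p = 0.0814) without control plate 1. The mean level of the 18 pancreatic genes was 0.60, -0.16 and -0.44 in control plates 1 to 3 and -0.56, -0.78 and -1.13 in TBBPA plates 1 to 3, and that of the 16 liver genes was 0.54, -0.33 and -0.20 against -0.47, -0.41 and -0.20. The order of the controls in the pancreatic genes was that of the clock repressors above, and the part of pancreatic and liver RNA in the other results was not tested.

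**Figure D4:**
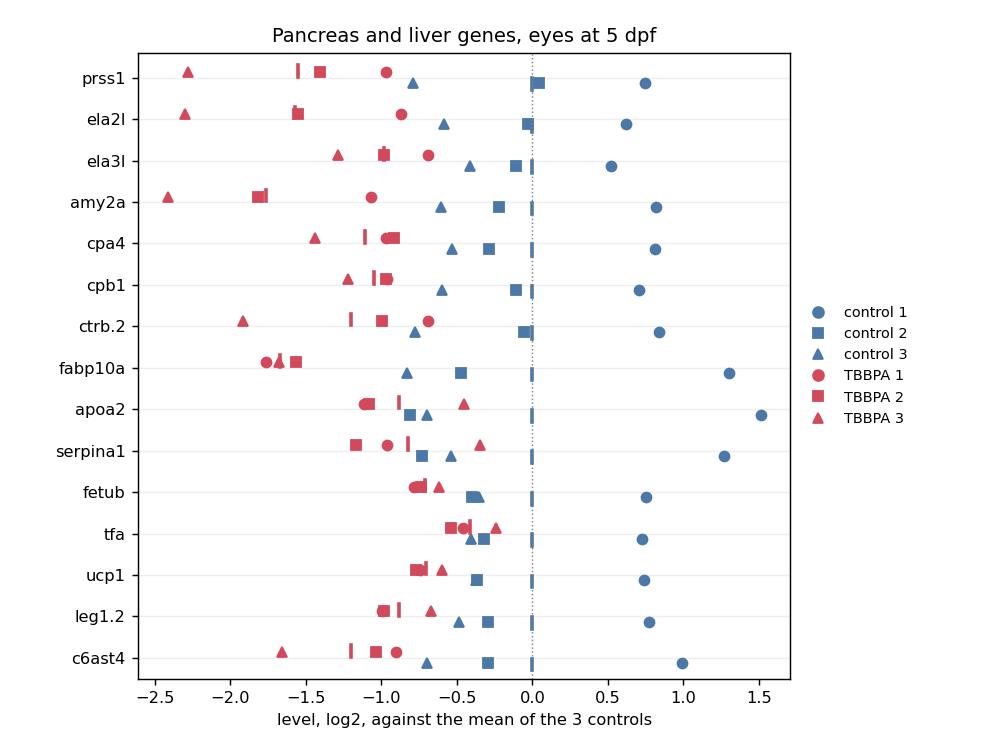
Level of 15 pancreas, liver and related genes in each plate at 5 dpf, on the log2 scale against the mean of the 3 controls, with symbols and lines as for the clock genes. Control plate 1 is the highest plate in every row, and TBBPA plates overlap with control plates 2 and 3 for apoa2 and serpina1 but lie below them for amy2a and fabp10a.

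Of the called named genes, 10 higher and 11 lower ones belonged to none of the lists, and those given here were chosen after their values were seen. The bHLH factor neurod1, which in zebrafish acts in photoreceptor precursors, was at -0.27, -0.02 and 0.29 in the controls and at 0.44, 1.01 and 1.05 in the TBBPA plates. The groups were apart by a small margin between control plate 3 and TBBPA plate 1, and neurod1 rose by 0.90 ± 0.16 (adjusted p = 0.00319), while its change of 0.60 without control plate 1 did not pass (adjusted p = 0.217). The ankyrin repeat gene ankrd33aa, whose mouse relative regulates photoreceptor genes, was at 0.35, -0.04 and -0.31 against -0.52, -0.88 and -1.06. It fell by 0.84 ± 0.11 (adjusted p = 0.000503), with all TBBPA plates below the controls, and by 0.57 (adjusted p = 0.0224) without control plate 1.

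The sodium pump subunit atp1a1a.2 was at 0.06, -0.23 and 0.17 in the controls and at 0.95, 0.81 and 0.82 in the TBBPA plates. The TBBPA plates were close together and far above the controls, and the gene rose by 0.85 ± 0.08 (1.80-fold, adjusted p = 4.01e-05), also without control plate 1 (0.91, adjusted p = 0.00969). The calcium pump atp2a2a rose by 0.43 ± 0.09 (adjusted p = 0.00622) as the mean of a called probe at 0.78 and another at 0.08. The inflammatory caspase caspb rose by 0.81 ± 0.13 (adjusted p = 0.00155), ependymin epd by 0.86 ± 0.11 (adjusted p = 0.000467), and the vitamin B12 carrier tcnbb by 0.99 ± 0.19 (adjusted p = 0.00498), the last with control plate 3 at 0.71 near the TBBPA plates. Leaving out control plate 1, epd passed (0.84, adjusted p = 0.0487), while caspb (adjusted p = 0.132), tcnbb (0.224) and atp2a2a (0.211) did not. Among the lower genes, leg1.2, which is enriched in liver in zebrafish, the uncoupling protein ucp1 and the astacin protease c6ast4 had control plate 1 far above the other controls, as the digestive genes did. ucp1 was at 0.74, -0.37 and -0.37 in the controls and at -0.75, -0.77 and -0.60 in the TBBPA plates, and its change of -0.80 ± 0.15 (adjusted p = 0.00436) was -0.35 (adjusted p = 0.08) without control plate 1.

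After 3 days in clean water, at 8 dpf, 39 probes were called, and 18 of them were among the 127 of 5 dpf. Of these, 17 had the same direction and stood for 14 genes, among them per1b (-1.94 at 5 dpf and -2.20 at 8 dpf), nr1d1 (-2.07 and -1.72), pde6c (-0.83 and -0.79), opn1mw1 (0.98 and 0.87) and kera (0.77 and 1.04). In all, 41 of the 64 higher probes were above 0 and 42 of the 63 lower ones below 0 at 8 dpf, and 121 of the 127 were smaller in size. Because the probes were chosen for a large change at 5 dpf, smaller changes at 8 dpf follow in part from that choice. The count alone therefore does not show that the effect faded. The ages have no samples in common, but arrays link them and all are in 1 model. Whether the effect itself differed between the ages was tested as 8 minus 5 dpf, and 11 of all probes passed and 5 were called.

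Of the 127 probes, 4 passed this test. The krt17 probe had a difference of -0.96 and the atp1a1a.2 probe one of -0.91, and the other pair had no name, with -2.08 and -0.73. As genes, krt17 changed by 0.63 at 5 dpf and by -0.19 at 8 dpf (adjusted p of the difference 0.0155), and atp1a1a.2 by 0.85 and -0.06 (adjusted p = 0.0044). Also cyp2y3 (0.56 and -0.02) and cox6a2 (0.66 and 0.03) differed between the ages, with differences of -0.58 and -0.63 (adjusted p = 0.0044 each). For amy2a the effect was -1.85 at 5 dpf and -0.08 at 8 dpf, and for mmp9 it was 1.28 and 0.15, yet these differences did not pass (adjusted p = 0.128 and 0.293), so a difference between ages is not shown for them. For per1b (-0.26, adjusted p = 0.78), opn1mw1 (-0.12, adjusted p = 0.892) and cabp5b (-0.03, adjusted p = 0.969) the difference was near 0 and did not pass.

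**Figure D5:**
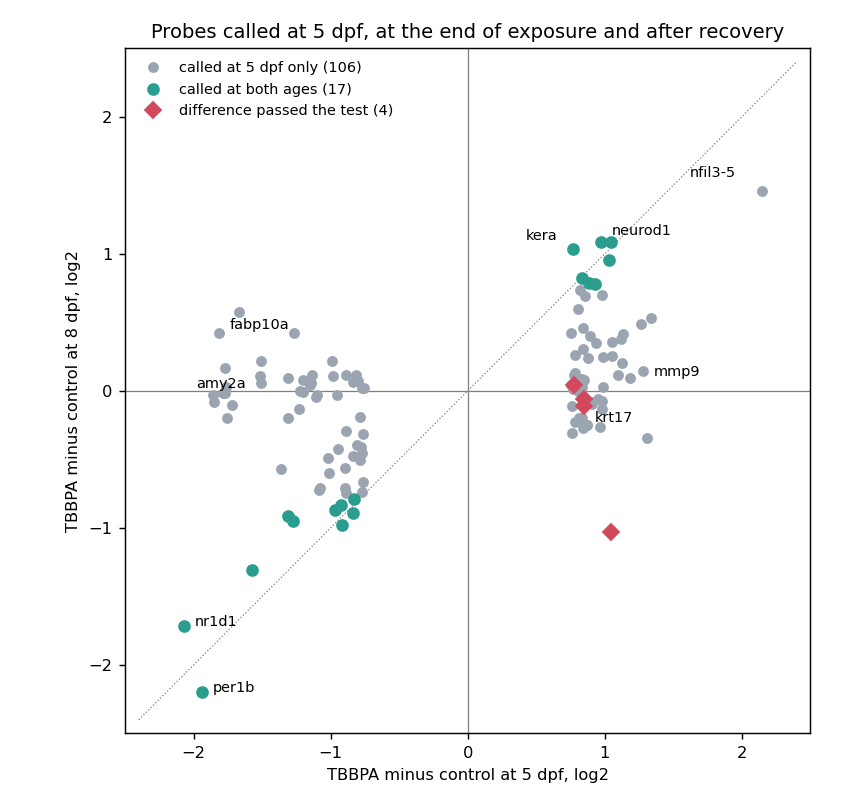
Log2 change of the 127 probes called at 5 dpf, at the end of exposure (horizontal axis) and at 8 dpf after 3 days in clean water (vertical axis). The dotted line marks equal changes, green points are called in the same direction at both ages and red diamonds are the 4 probes whose difference between ages passed. The clock genes per1b and nr1d1 lie near the dotted line and nfil3-5 lies below it (2.15 and 1.46), while amy2a and mmp9 lie near 0 on the vertical axis.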

How the data were processed

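The authors scanned the arrays with GenePix software, left out spots near the local background on all arrays, applied a normal-exponential background correction and within-array loess normalization, and fitted limma 3.34.4. The deposited values are log2 ratios of Cy5 over Cy3 per probe and array, whose base and direction come from the methods and dye labels. When 1 array was reversed at a time the model's residual sum of squares grew 1.02 to 1.88 times for each of the 14 arrays. A common reversal of all of them was not tested. Each 5 dpf sample carried each dye equally often, plate 1 of each group was on 4 arrays and the other plates on 2. The number of arrays limits the precision.

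The ratios of all 14 arrays were fitted with limma 3.58.1 in R 4.3.3, with a coefficient per group and no dye term. The RNA sample was a random effect whose estimated share of the variance was 0 (0.167 beside a dye effect). Tests were two-sided with Benjamini-Hochberg adjustment. The calling of probes was tried on simulated ratios that had no differences between plates of a group. That trial therefore cannot show how the p-values hold where plates differ, as they did here. Plate levels were obtained by least squares. Of the probes, 14135 had a gene symbol, and 12089 were matched by accession to RefSeq for current names. The genes planned for naming were the 15 highest and 15 lowest called probes with a symbol, up to 4 genes of each list with the largest change among those that passed (or 2 if none did) and a set of vision, clock, thyroid and stress genes, of which 37 of 47 are analysed here. The text names only part of these genes, and that part was not fixed by a rule. Members and the 51 lists, some narrower than the marker families first written down, were chosen with earlier results of these data known, and other genes named in the text were chosen after their values were seen. Alternatives were a dye effect, a random sample effect, direct arrays alone, plates as replicates, array medians set to 0, array weights, robust fitting, a replicate block and each sample left out.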

Additional observations from a re-analysis of the deposited data

Results flagged for a closer look

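Of 192 single values tested over the 6 direct arrays, 11 had an array far from the others, where chance gives about 1 in 20. For 9 of these the array was that of TBBPA plate 1 and control plate 3. On it the change was 0.28 for opn1mw1, against 0.94 to 1.33 on the other 5 arrays, 0.29 for pde6h (others -1.30 to -0.77), 0.34 for pde6ha (others -1.09 to -0.69) and -0.095 for grk7a (others -0.82 to -0.61). For lens and other genes it was 0.12 for bfsp2, 0.16 for myca, 0.081 for mvp, -0.11 for lcp1 and -0.11 for coro1a. For the remaining pair it was the array of control plate 1 and TBBPA plate 2, with -0.014 for alas1 and -0.31 for avp, where the others were positive.

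The effect differed between the ages by the test of 8 minus 5 dpf for cyp2y3 (-0.58) and cox6a2 (-0.63) as genes, and for single probes of atp1a1a.2 (-0.91), krt17 (-0.96) and 2 unnamed transcripts (-2.08 and -0.73). The first unnamed probe was 1.05 higher at 5 dpf and lower by 1.03 at 8 dpf.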

How the results depend on the processing

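The 127 called probes all kept their direction without control plate 1, while the count ranged from 18 (without control plate 1) to 216 (without control plate 3) when a sample was left out, and was 82 without TBBPA plate 2. It was 5 with plates as replicates, of which kera, krt17 and crygn2 have a name (2443 probes had an unadjusted p under 0.05), and 1270 with no threshold on the size. The 833 genes became 363 with the direct arrays alone, 499 with a dye effect and a random sample effect, 2 with plates as replicates, and 56 (without control plate 1) to 1032 (without control plate 3 of 8 dpf) as samples were left out. The 5 probes whose effect differed between the ages were 9 with a dye effect and 0 to 81 when a sample was left out, with 0 without control plate 1 or TBBPA plate 1 and 81 without control plate 3. With the replicate number as a block, 130 probes were called. Same-numbered plates of the groups deviated with correlations of -0.14, -0.11 and -0.04, so the numbers do not pair the plates. Among named genes over all alternatives, 2581 values kept their call, 801 kept the direction but no longer passed and 20 passed newly. No gene or probe that passed changed its sign. The direction of genes that had not passed was not compared and could change, as for per1a (-0.09, and 0.02 without control plate 1). The precision is limited by 3 plates per group.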
